A study of Rattus norvegicus with 5 samples.

Results

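The 9 genes described here, Lyn, Syk, Btk, Plcg2, Vav1, Pik3cd, Pik3ap1, Ptpn6 and Inpp5d, encode kinases, phosphatases and their partners that act behind receptors with an immunoreceptor tyrosine-based activation motif (ITAM). They were chosen by name, as known parts of this pathway, from the 17321 genes of the deposited count table. Earlier results of these data were known when they were chosen. Each symbol matched 1 row, and all 9 genes had enough counts to be tested. RNA came from the lumbar (L4 to L6) spinal dorsal horn of Sprague Dawley rats on day 9 after surgery. The CCI group had 3 libraries and the SHAM group had 2. The labels do not spell CCI out; it commonly stands for chronic constriction injury, a rat model of nerve pain made by tying loose ligatures around a peripheral nerve. A SHAM animal has surgery but no injury. The sources used here give neither sex nor age, and nothing says that the libraries came from separate animals. The p-values therefore reflect only how far these libraries differ, which may be technical.

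ITAM receptors have no enzyme of their own. A Src family kinase such as Lyn phosphorylates a pair of tyrosines in the motif, Syk docks there, and adaptors bring in Btk, phospholipase C gamma, Vav exchange factors and phosphoinositide 3-kinase, which drive calcium release, actin remodelling and transcription. Ptpn6 and Inpp5d are recruited by receptors with inhibitory motifs (ITIM) and oppose these steps by removing phosphate from proteins and from membrane phosphoinositides. In the central nervous system most of these proteins are known from microglia, which signal through the ITAM adaptor Tyrobp (DAP12), while Btk, Syk, Plcg2 and Pik3ap1 are also classical B cell genes.

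The libraries held 20053353 to 23673198 estimated counts. The share of ribosomal RNA rows was 16.0% in CCI 3, against 2.18% to 2.71% elsewhere. The tissue markers for neurons, astrocytes and oligodendrocytes were abundant in every library, and of their 19 tested genes only the astrocyte filament gene Gfap passed the test (log2 fold change 1.04). CCI 2 and CCI 3 stood apart in genes of nerve sheath and connective tissue. CPM, the counts scaled to a common library size by trimmed mean of M-values, summed over 10 Schwann cell genes came to 169, 382 and 783 for CCI 1 to 3 but 165 and 176 for the SHAM pair. Over 10 fibroblast genes the CCI sums were 172, 911 and 762 CPM and the SHAM sums 180 and 224 CPM. Results without CCI 2 and CCI 3 are therefore given beside those of all libraries.

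All but one of the 9 genes were called higher after CCI. A gene was called where edgeR's quasi-likelihood test gave it an adjusted p no higher than 0.05 (Benjamini-Hochberg over all 13478 tested genes) and the groups differed 1.5-fold or more. By that rule 8 of the 9 rose and none fell. Of all tested genes 2.85% were called in either direction and 2.59% rose. The 9 were chosen with earlier results of these data known, so such shares are not an independent background. Syk was the gene that did not pass. The median log2 fold change of the 9 genes was 1.57, against 0.01 over all tested genes, and the range was 0.78 to 2.39. In each of the 9 genes every CCI library lay above both SHAM libraries, a separation seen in 18.6% of tested genes. In 7 of the 9 the lowest CCI library was at 2 or more times the highest SHAM library, which held for 2.16% of tested genes. With 3 libraries against 2, a two-sided exact permutation test of a single gene cannot go below p = 0.1, the value it gave for each of the 9.

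**Figure D1:**
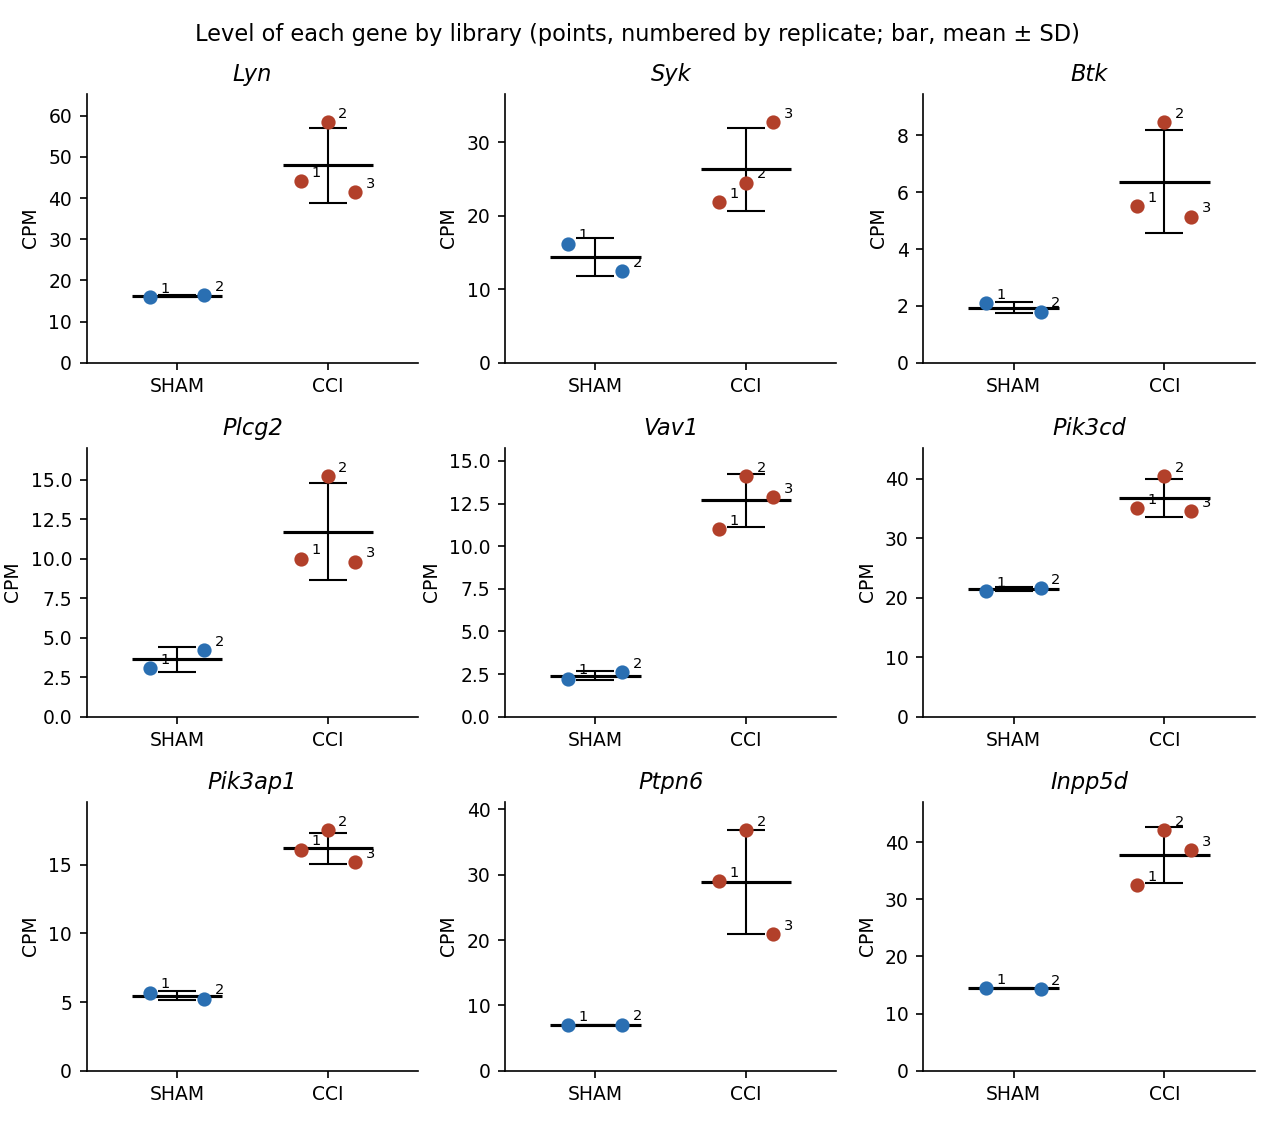
Level of each gene in CPM (vertical axis, from 0) in the 2 SHAM and 3 CCI libraries. Points are libraries numbered by replicate and black bars are the group mean ± SD; in all 9 panels the CCI points lie above the SHAM points, and Syk differs from the others in having CCI 3 as its highest library.

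Lyn, the Src family kinase that starts ITAM phosphorylation, had 44.2, 58.4 and 41.4 CPM across the CCI libraries, against 16.0 and 16.4 CPM across SHAM. The SHAM libraries were nearly equal, and the lowest CCI library was 2.52 times the higher of them. Its log2 fold change was 1.57 (SE 0.16, 2.97-fold, adjusted p = 0.00163). Btk, the Tec family kinase that phosphorylates phospholipase C gamma, was the scarcest of the 3 kinases. CCI 1 to 3 held 5.51, 8.46 and 5.14 CPM of it and the SHAM libraries 2.09 and 1.80 CPM, which rests on 97 to 213 counts per CCI library and on 46 and 36 counts in SHAM. CCI 2 was well above the other injured libraries, and no CCI library reached down to SHAM. The rise of Btk was 3.27-fold (log2 1.71, SE 0.30, adjusted p = 0.0164).

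Syk, the kinase that binds the phosphorylated ITAM, had a smaller and less even difference. Its CCI values were 21.8, 24.5 and 32.7 CPM, its SHAM values 16.2 and 12.5 CPM. The groups did not overlap, but the gap was narrow, with CCI 1 at 1.34 times SHAM 1. The log2 fold change of 0.87 (SE 0.20, 95% confidence interval 0.40 to 1.33) did not pass the adjusted threshold (adjusted p = 0.0677), and a likelihood ratio test in edgeR (adjusted p = 0.00429) and DESeq2 (adjusted p = 0.00538) both called it, tests by which 4.24% and 4.04% of all tested genes were called higher. Without CCI 1, the lowest CCI library, its adjusted p in edgeR's quasi-likelihood test was 0.0185 and all 9 genes were called, against 4.8% of all tested genes called higher. Syk was highest in CCI 3, the library with the most ribosomal RNA and the highest Schwann cell sum, whereas each of the other 8 genes was highest in CCI 2. Whether those features have a part in the Syk values was not tested. With CCI 2 and CCI 3 left out its log2 fold change was 0.58. Syk was also the only one of the 9 with fractional estimated counts, which can arise where reads fit more than 1 row, so its level is uncertain.

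The effector enzymes and their partners all rose. Vav1, the exchange factor that activates small GTPases in blood-derived cells, showed the largest change of the 9. After CCI it reached 11.0, 14.1 and 12.9 CPM, from 2.23 and 2.60 CPM in the SHAM libraries, or 237, 354 and 244 counts against 49 and 52. The injured libraries were close together, and the lowest was 4.22 times the higher SHAM library. The log2 fold change was 2.39 (SE 0.20, 5.24-fold, adjusted p = 6e-04), rank 25 of all tested genes by p. Plcg2, which cleaves a membrane phosphoinositide to release calcium and diacylglycerol signals, had 216, 384 and 185 counts in CCI 1 to 3 against 67 and 84 in SHAM, a mean of 11.7 ± 3.08 CPM (SD, n = 3) against 3.62 ± 0.814 CPM (SD, n = 2). As for Btk, CCI 2 lay above the other CCI libraries, which were alike. The rise of Plcg2 was 3.24-fold (log2 1.70, SE 0.26, adjusted p = 0.0108).

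Pik3cd, the delta catalytic subunit of phosphoinositide 3-kinase, had the smallest change of the 9, with 35.0, 40.4 and 34.6 CPM after CCI where SHAM had 21.1 and 21.6 CPM. Because the libraries of each group were close to each other, the log2 fold change of 0.78 (SE 0.12, 1.72-fold) passed the test with an adjusted p of 0.00921. Pik3ap1 encodes BCAP, an adaptor that couples phosphoinositide 3-kinase to receptors. It was the most even of the 9 across CCI libraries, at 16.1, 17.5 and 15.2 CPM, against 5.68 and 5.25 CPM in SHAM. Its log2 fold change was 1.57 (SE 0.16, 2.97-fold, adjusted p = 0.00127). The 95% confidence intervals, 1.22 to 1.92 for Pik3ap1 and 0.51 to 1.05 for Pik3cd, did not overlap.

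The inhibitory phosphatases rose beside the kinases. Ptpn6 (SHP-1), a tyrosine phosphatase that docks on ITIM receptors, reached 29.0, 36.8 and 20.9 CPM after CCI, while the SHAM libraries had 6.96 and 7.05 CPM. CCI 3 was the lowest injured library here, as it was for 6 of the 9 genes counting Ptpn6, whereas for Syk it was the highest. For Ptpn6 it still lay at 2.97 times the higher SHAM library. The log2 fold change was 2.05 (SE 0.24, 4.13-fold, adjusted p = 0.00432), the second largest of the 9. Inpp5d (SHIP), the lipid phosphatase that removes a phosphate from the product of phosphoinositide 3-kinase, had CCI levels of 32.5, 42.1 and 38.6 CPM over SHAM levels of 14.5 and 14.3 CPM. No CCI library came near SHAM, and the rise was 2.62-fold (log2 1.39, SE 0.14, adjusted p = 0.00139). The phosphatase changes thus lay within the range of the kinases and effectors, from Pik3cd at 0.78 to Vav1 at 2.39.

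The calls depended on having both SHAM libraries. A group left with 1 library is assumed here to vary like the other group. Without SHAM 1, and likewise without SHAM 2, 3 of the 9 were called, and they were Vav1, Pik3ap1 and Inpp5d both times; the shares of all tested genes called higher were then 0.445% and 0.532%. In the Vav1 row the adjusted p was 0.0288 and 0.018. With CCI 1 as the only injured library the same 8 genes were called, against 2.73% of all tested genes, and Vav1 had a log2 fold change of 2.17.

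Levels can be compared between genes in the authors' deposited table, which is scaled for transcript length (here TPM). In SHAM the order was Lyn, Pik3cd, Ptpn6, Inpp5d, Syk, Pik3ap1, Btk, Vav1 and Plcg2, from 5.85 ± 0.101 to 1.02 ± 0.227 TPM (SD, n = 2). In CCI it was Lyn, Ptpn6, Pik3cd, Inpp5d, Pik3ap1, Syk, Vav1, Btk and Plcg2, from 17.7 ± 3.36 to 3.35 ± 0.888 TPM (SD, n = 3). Ptpn6 reached 17.4 ± 4.81 TPM in CCI, up from 4.14 ± 0.0163 TPM in SHAM, and its CCI libraries overlapped those of Lyn. The only neighbours in the CCI order whose libraries did not overlap were Ptpn6 and Pik3cd. In SHAM, Inpp5d with Syk and Vav1 with Plcg2 overlapped. Plcg2 was lowest in both groups.

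The 9 genes were next set against microglial markers, since in bulk RNA more cells of a type and more RNA per cell cannot be told apart. Of 18 microglia genes 14 rose and none fell, with a median log2 fold change of 1.39. Among all tested genes 2.59% rose. Csf1r, the receptor that microglia need to survive, rose by 1.64, Itgam, a surface integrin, by 1.82 and C1qa, a complement subunit, by 2.36. Tmem119 (0.23), Sall1 (0.44) and Selplg (0.01) were among those that did not pass. Without SHAM 1 the test called 8 of the 18, and without SHAM 2 it called 9. For each library the mean log2(CPM + 1) of the 18 genes was subtracted from the log2(CPM + 1) of each ITAM gene. For 6 of the 9, Lyn, Syk, Btk, Plcg2, Pik3ap1 and Inpp5d, these differences overlapped between CCI and SHAM. Inpp5d, for example, stood at -0.65, -0.56 and -0.45 relative to the markers in CCI 1 to 3. In SHAM 1 and 2 it stood at -0.40 and -0.69. Syk overlapped as well, with CCI 3 (-0.69) above SHAM 2 (-0.87), but its mean was lower in CCI (-1.07) than in SHAM (-0.56).

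In the remaining 3 genes the groups did not overlap on this scale. Of all tested genes, 0.742% had every CCI library above both SHAM libraries relative to the markers and 96.0% had every CCI library below, since the markers themselves were higher in CCI. Vav1 stood at -2.14, -2.08 and -1.96 relative to the markers in CCI and at -2.66 and -2.79 in SHAM, so it was 0.66 higher after CCI on the log2 scale. Ptpn6 stood at -0.82, -0.75 and -1.31 in CCI and at -1.36 and -1.62 in SHAM, 0.53 higher, although CCI 3 nearly met SHAM 1. Pik3cd went the other way, at -0.55, -0.62 and -0.61 in CCI and 0.12 and -0.13 in SHAM, 0.59 lower, on the side where most genes lay. These differences are described without a test, and they depend on the 18 markers used, which did not all move alike. Tmem119 (11.4 and 25.5 CPM) and Selplg (11.1 and 25.1 CPM), for example, differed between SHAM 1 and SHAM 2. The 1 added before the log also lowers the changes of scarce genes. With 0.1 added, the CCI minus SHAM difference in mean log2 level was 1.63 instead of 1.30 for Btk and 2.34 instead of 2.0 for Vav1. The marker comparison was not repeated with 0.1.

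**Figure D2:**
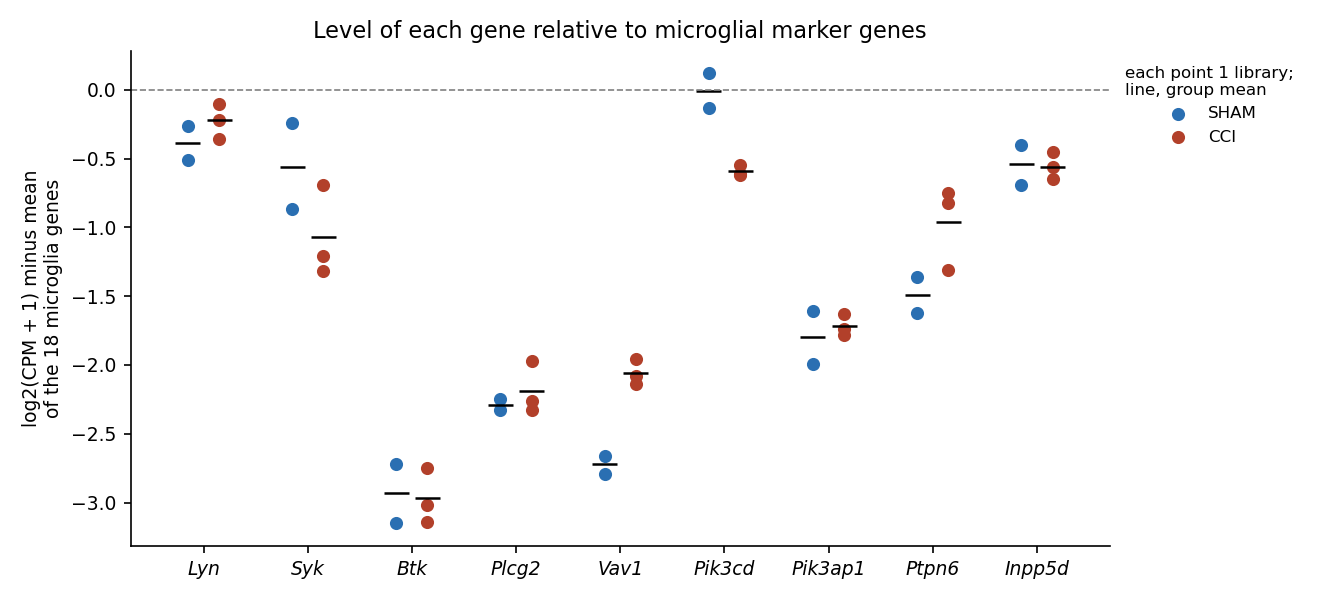
Log2(CPM + 1) of each gene minus the mean of 18 microglia genes in the same library (vertical axis), with 1 point per library and a line at each group mean. Vav1 and Ptpn6 sit higher in CCI than in SHAM, Pik3cd sits lower, and the other 6 genes overlap.

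Close relatives of these genes within the same protein families, chosen after the values had been seen, mostly did not pass. Lyn's relatives fell into sets by their known expression. Fgr, a Src family kinase of myeloid cells, rose by 2.13 (SE 0.22, adjusted p = 0.00146) on the log2 scale in edgeR. The widely expressed Fyn, Src and Yes1 had log2 fold changes of -0.08, 0.04 and 0.02, with 95% confidence intervals from -0.32 for the lowest bound to 0.27 for the highest. Plcg1 had a log2 fold change of 0.12, Vav2 of -0.06 and Vav3 of -0.23. Ptpn11, the other tandem SH2 phosphatase, had -0.17 and Inppl1, the other SHIP, had -0.01. The phosphoinositide 3-kinase subunits Pik3ca and Pik3cb had 0.06 and 0.14. Yes1, Pik3ca and Ptpn11 had fractional estimated counts and are uncertain. Among the Tec kinases, Tec had 0.58 (95% confidence interval 0.12 to 1.05) and Bmx 0.31, and Zap70, the relative of Syk, had 0.26 (-0.63 to 1.14).

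The widely expressed relatives were the more abundant partners in SHAM, and less so in CCI. In the deposited length-scaled table Ptpn11 was 36.6 times as high as Ptpn6 in SHAM and 7.85 times in CCI. Plcg1 was 27.5 times Plcg2 in SHAM and 9.27 times in CCI, and Vav2 was 17.4 times Vav1 in SHAM and 3.18 times in CCI. The log2 ratio of a gene to its relative was compared between groups for 14 pairs. The differences in mean ratio ran from 0.27 lower in CCI for Lyn to Fgr to 2.20 higher for Vav1 to Vav3. With relatives chosen after their values were seen and mostly near 0, these ratios largely restate the change of the 9 genes. A two-sided exact permutation test gave p = 0.1 or above for each pair and p = 0.117 or above after Benjamini-Hochberg adjustment over the 14, so no pair could pass in this design.

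**Figure D3:**
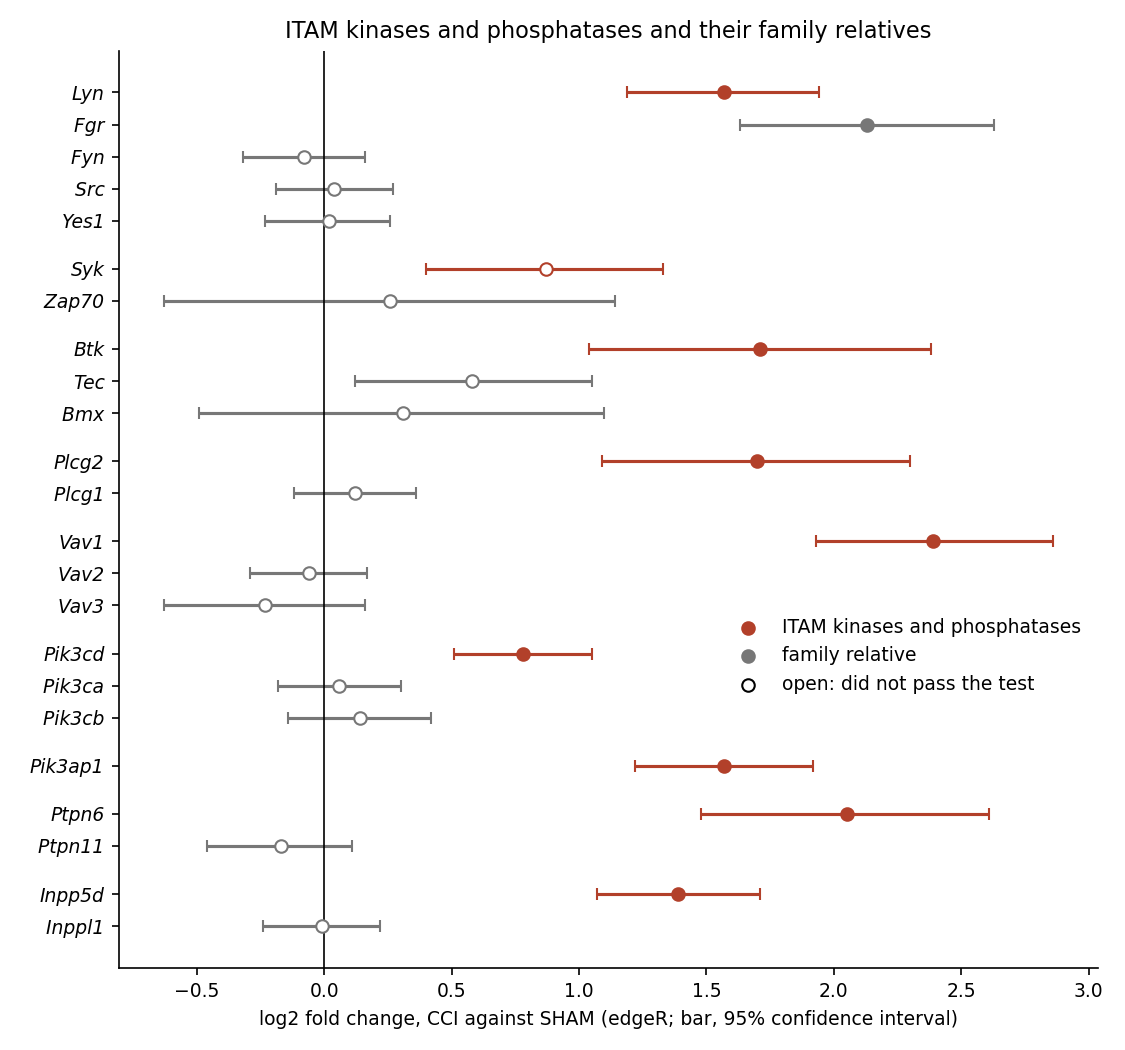
Log2 fold change of CCI against SHAM (horizontal axis) with 95% confidence intervals for the 9 genes (red) and their family relatives (grey); open circles did not pass edgeR's test. The interval of Fgr (2.13) overlaps that of Lyn (1.57), while Fyn, Src, Yes1, Plcg1, Vav2, Vav3, Pik3ca, Pik3cb, Ptpn11 and Inppl1 lie near 0.

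Elsewhere in the pathway, 31 of 95 tested genes rose and none fell, from 117 genes in 7 lists, of which 105 were in the table. Among all tested genes 2.59% rose. The lists were drawn up with earlier results of these data known. Of 13 ITAM chains and coupled receptors 5 rose (median log2 fold change 1.90). The adaptor Tyrobp rose by 1.90 (24.2 against 6.51 mean CPM) and Fcer1g, the gamma chain of Fc receptors, by 1.76. Fcgr1a, the high-affinity Fc receptor, rose by 2.32, Fcgr3a by 3.14 and Clec7a, a receptor for fungal beta-glucan, by 5.87, the last from 0.189 mean CPM in SHAM. Trem2, a lipid receptor that pairs with Tyrobp, had a log2 fold change of 0.997 and did not pass (adjusted p = 0.0731 in edgeR).

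Of 17 scaffolds and adaptors 8 rose (median 0.86). They included Blnk, the B cell linker that brings Btk to phospholipase C gamma (1.40), Lat2 (2.34), Fyb1 (2.82) and Sla (2.09). The widely expressed adaptors Grb2 (-0.13), Gab1 (-0.06) and Nck1 (-0.05), named after their values were seen, did not pass. Skap2, an adaptor of the same list, rose (0.71). Of 24 downstream enzymes and effectors 4 rose (median 0.13), namely Rac2, the small GTPase of blood cells (2.87), the actin regulator Was (1.94), the phosphoinositide 3-kinase regulatory subunit Pik3r5 (1.49) and the kinase Prkcd (0.60). Rac1 had a log2 fold change of 0.23 and did not pass.

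Of 10 Src family kinases and regulators 3 rose (median 0.45), among them Fgr and Ptprc (CD45, 1.90). None of the 4 tested kinases of the Syk and Tec families outside the 9 passed (median 0.44), and Tec is given above. Of 10 other phosphatases 2 rose (median 0.12), Ptpn1 (0.78) and Ptpn18 (1.18). Of 17 ITIM receptors, the upstream partners of Ptpn6 and Inpp5d, 9 rose (median 1.30), among them the lectins Clec4a3 (3.63) and Clec12a (4.20), the inhibitory Fc receptor Fcgr2b (2.47) and Cd300a (2.25). Ptprc, Fcgr2b, Cd300a and Prkcd had fractional estimated counts and are uncertain. Over the 7 lists 9 genes were called without SHAM 1, 12 without SHAM 2 and 26 with CCI 2 and CCI 3 left out.

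**Figure D4:**
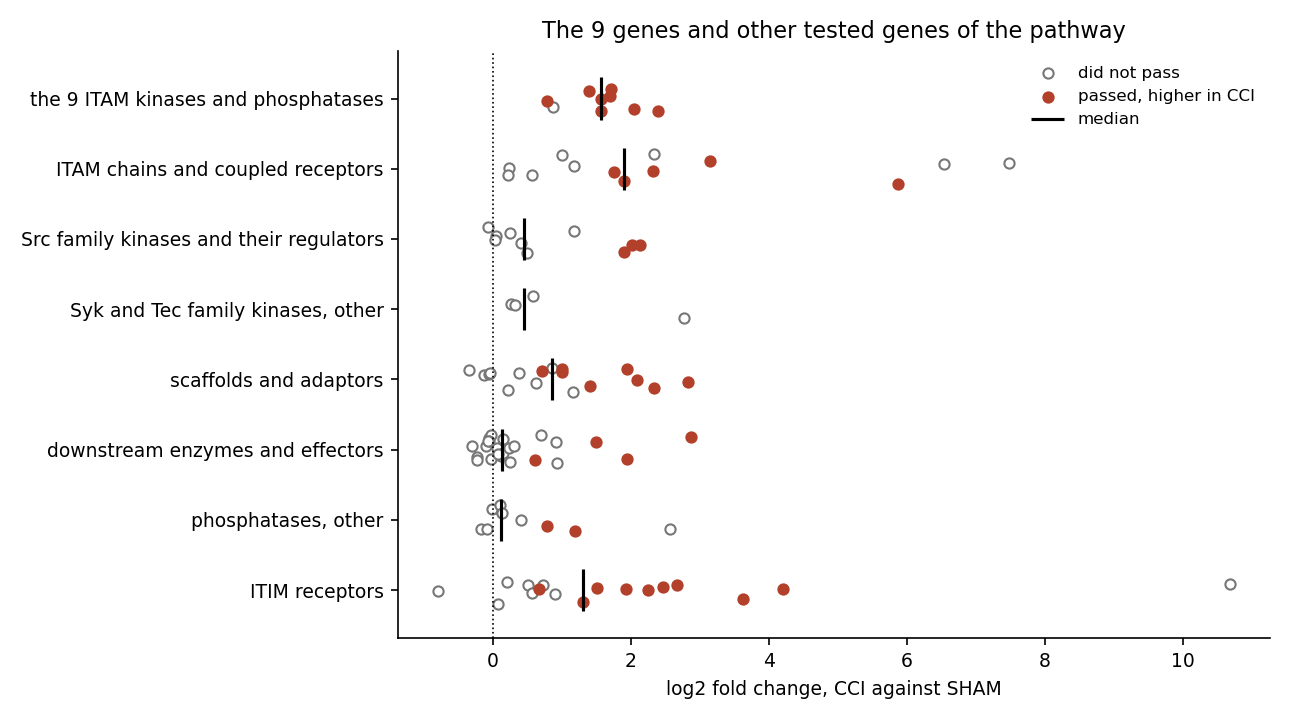
Log2 fold change of CCI against SHAM (horizontal axis) for every tested gene of the 9 and of the 7 pathway lists, with vertical lines at the medians. Filled red points passed the test, all of them to the right of 0, and open points did not; the open point at 10.69 is Lilrb4, which had no counts in SHAM.

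Markers of other leukocytes that carry the same kinases were mostly low, with exceptions. Of 8 B cell genes 7 were in the table, 4 were tested and none passed. Ms4a1 (CD20) had 0, 3 and 2 counts in CCI and none in SHAM. CPM summed over the B cell genes ran from 5.60 to 13.9 in CCI and were 7.64 and 6.15 in SHAM. Of 10 T and NK cell genes 4 were tested and none passed; their summed CPM ran from 58.9 to 92.9 in CCI and were 72.1 and 52.7 in SHAM. Most of each sum was Ncr1, a natural killer receptor gene with fractional counts (54.0, 57.8 and 85.2 CPM in CCI 1 to 3). Leaving out Ncr1, a step chosen after the values were seen, the sums were 4.86, 20.8 and 7.69 CPM for CCI 1 to 3 but 4.23 and 3.95 CPM for SHAM, so CCI 2 stood apart. Cd3e had 0, 56 and 9 counts in CCI 1 to 3 and none in SHAM. Of 8 neutrophil genes only Csf3r was tested, and it rose (2.13). The list summed to 16.2 to 19.2 CPM in CCI and to 4.77 and 3.90 CPM in SHAM. Most of each sum was Csf3r. With Csf3r left out, again after its values were seen, the CCI sums were 0.648, 1.47 and 1.54 CPM. The SHAM sums were then 0.909 and 0.3 CPM. S100a8 had 2, 1 and 4 counts in CCI and none in SHAM.

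Border macrophage and monocyte genes came to 111, 147 and 168 CPM over CCI 1 to 3 where SHAM had 113 and 118 CPM, and of the 8 tested only Folr2 rose (2.32). Most of each sum was Vcan, a matrix proteoglycan gene. Leaving out Vcan, again after its values were seen, the CCI sums were 25.7, 62.9 and 67.8 CPM and the SHAM sums 27.9 and 31.3 CPM. Without CCI 1 the test called 4 of the 8, and without CCI 3, SHAM 1 or SHAM 2 it called 0. Mrc1, the mannose receptor of border macrophages, had 5.74, 20.2 and 21.6 CPM across CCI, against 3.64 and 6.40 CPM across SHAM, so it was high in the 2 libraries with high Schwann cell and fibroblast sums. With all libraries none of 10 Schwann cell or 10 fibroblast genes passed (medians 1.37 and 1.60). Without CCI 1, where 4.8% of all tested genes were called higher, the test called 3 Schwann cell and 6 fibroblast genes higher. It called 1 Schwann cell gene without CCI 2, and 1 with CCI 2 and CCI 3 both left out. The part of these cells in the ITAM gene values was not tested. In CCI 1 the sums of these 3 lists were close to those of SHAM, and the calls without CCI 2 and CCI 3 are those given above.

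Among the other 12751 candidates with a mean of at least 1 CPM, the 5 whose profile over the 5 libraries was nearest to the mean profile of the 9 genes were Gna15, Gpr31, Grn, Nfkbiz and Cd37. Likeness was the Euclidean distance between log2(CPM + 1) values after each gene's mean was removed. The distances were 0.13 for Gna15, a G protein alpha subunit of blood cells, 0.158 for Gpr31, 0.178 for Grn, which encodes the lysosomal protein progranulin, 0.18 for Nfkbiz and 0.184 for the tetraspanin gene Cd37. For comparison, Inpp5d, Pik3ap1 and Lyn lay at 0.171, 0.174 and 0.187 from the mean of the 9, Btk at 0.266 and Plcg2 at 0.34. Ptpn6 (0.665), Pik3cd (0.696), Vav1 (0.703) and Syk (0.84) lay farthest. Each of the 9 enters the mean it is compared with, which shortens its distance. Their distances and those of the 5 are therefore not like for like.

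The sequence around the start sites was described by 8 letter strings chosen after the sequences were seen. One was GAGGAA, the core of a box known to bind PU.1, the myeloid Ets factor encoded by Spi1. Spi1 itself rose by a log2 fold change of 1.76 (11.9 against 3.51 mean CPM, adjusted p = 0.00146 in edgeR). RefSeq promoters of the build GRCr8 were at hand for 8 of the 9 genes, each 250 bases before to 50 after 1 start; no Lyn entry was used. GAGGAA, read on both strands, stood in 6 of the 8, in all but Ptpn6 and Pik3cd, and in 27.6% of all 33469 promoters of that length. The longer GAGGAAGT, which contains it, stood in Vav1 and Inpp5d and in 2.42% of all promoters. GGAA stood in 8 of the 8 and in 95.8% of all promoters, CANNTG in 6 and 72.1%, TATAAA in 1 and 14.2%, and TGACTCA in 0 and 4.63%. GGAAGTG stood in 3 of the 8 and in 9.86% of all, and AGGAAGTG in 1 and 3.44%; both overlap the GGAA core. The start used lies inside the annotated gene by 17654 bases for Syk, 22652 for Pik3cd, 40138 for Pik3ap1, 305 for Btk and 99 for Vav1, so other starts exist for them. The Btk box lies after the start, the Inpp5d box shown crosses it, and Inpp5d held a second box after its start that is not shown. The windows show the box with 15 bases on each side, 5′ to 3′ on the gene's strand, with the box in capitals (TTCCTC where it lies on the opposite strand).
Syk, chr17:12813315-12813350, minus strand: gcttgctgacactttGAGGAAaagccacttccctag
Btk, chrX:102055114-102055149, minus strand: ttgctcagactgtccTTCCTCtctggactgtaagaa
Plcg2, chr19:62456047-62456082, plus strand: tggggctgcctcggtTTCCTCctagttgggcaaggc
Vav1, chr9:2248888-2248923, plus strand: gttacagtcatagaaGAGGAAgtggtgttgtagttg
Pik3ap1, chr1:250154217-250154252, minus strand: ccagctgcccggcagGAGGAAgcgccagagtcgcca
Inpp5d, chr9:95735515-95735550, plus strand: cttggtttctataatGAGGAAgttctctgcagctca

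The whole 250 bases before the start are shown for the pair with the largest changes, Vav1, which holds the box at 52 bases before the start used, and Ptpn6, which holds none in this window.
Vav1, chr9:2248705-2248954, plus strand: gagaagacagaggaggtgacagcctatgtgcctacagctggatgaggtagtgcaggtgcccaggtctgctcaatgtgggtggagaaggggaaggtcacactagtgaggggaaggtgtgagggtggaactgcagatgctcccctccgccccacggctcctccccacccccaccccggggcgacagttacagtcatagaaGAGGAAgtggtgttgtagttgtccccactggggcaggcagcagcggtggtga
Ptpn6, chr4:159237070-159237319, minus strand: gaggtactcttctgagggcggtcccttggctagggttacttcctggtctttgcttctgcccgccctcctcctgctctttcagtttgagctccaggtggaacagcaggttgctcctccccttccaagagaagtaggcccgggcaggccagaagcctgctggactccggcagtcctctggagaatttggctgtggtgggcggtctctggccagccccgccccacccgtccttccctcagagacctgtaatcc
A match describes these letters only, and binding was not measured. Whether the box has a part in the changes of these genes was not tested.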

How the data were processed

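RNA-seq libraries of 3 CCI and 2 SHAM dorsal horn samples were grouped by the treatment label; replicate numbers follow accession order. The deposited estimated counts are listed by gene symbol; kallisto 0.44.0 and the build rn6 are named in the submitters' processing notes. The authors' second table, a length-scaled signal called TPM, was normalized by trimmed mean of M-values before it was deposited, per the series' design text; its column totals vary. The gene annotation is not given in the sources used here. Counts were rounded and tested with edgeR 4.0.16 in R 4.3.3 (filterByExpr; TMM; robust glmQLFit and glmQLFTest; 3 residual degrees of freedom), which kept 13478 of 17321 genes. The SE is the log2 fold change over the root of F. A gene is called fractional where any library is more than 0.01 from a whole number, as in 18.2% of tested genes.

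On data simulated from these libraries (13401 genes run), edgeR called 36% of genes changed 1.5-fold, 84% of those changed 2-fold, 96% of those changed 3-fold and 94% of those changed 4-fold in CCI against SHAM. Alternatives were edgeR's likelihood ratio test, DESeq2 1.42.0, limma-voom (limma 3.58.1), other scalings and filters, the deposited table on the log2 scale, and leaving out libraries. The rule for naming took all 9 genes and up to 4 called genes of each pathway list by p, or 2 uncalled ones. It also took the leading markers and the 5 nearest profiles. Family relatives, some adaptors and some other genes were named after their values were seen. The 9 genes and all lists were chosen with earlier results of these data known. Figures were drawn with matplotlib 3.10.9. Some genes of the lists are not reported here by name.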

Additional observations from a re-analysis of the deposited data

How the results depend on the processing

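Every gene of the 9 kept its direction under all 16 alternatives. The number called was 8 or 9 under each except those without a SHAM library, and leaving out 1 library at a time gave 3 to 9 of the 9 genes, 61 to 763 of all genes and 9 to 38 of the other pathway genes; the low ends came without SHAM 1, where 61 genes were called, and 78 were called without SHAM 2. The likelihood ratio test called 646 genes in all and DESeq2 614, against 384. Lyn, Btk, Plcg2, Pik3cd and Ptpn6 lost their calls without SHAM 1 and without SHAM 2, with adjusted p values between 0.0554 and 0.21 and log2 fold changes of 1.55 and 1.58 for Lyn, and of 2.04 and 2.05 for Ptpn6. Vav1, Pik3ap1 and Inpp5d were called under all 16. Syk was called under 3 (the likelihood ratio test, DESeq2 and without CCI 1), and its adjusted p ran from 0.00429 to 0.399. Scaling moved the median of all genes by at most 0.022. With CCI 2 and CCI 3 left out the log2 fold change was 1.44 for Lyn, 1.48 for Btk and 1.46 for Plcg2. It was 1.16 for Inpp5d, 0.70 for Pik3cd, 1.54 for Pik3ap1 and 2.04 for Ptpn6. Each of these was lower than with all libraries. Btk, Vav1 and Plcg2 had the fewest counts in SHAM (36 to 84), which limits the precision of their folds. No paired analysis was possible because the labels give no replicate numbers shared between the groups.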
